A study of Homo sapiens with 8 samples.

Results

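The p53 target genes described here are a set of 10 named genes whose transcription the p53 protein is known to raise: CDKN1A, MDM2, GDF15, BTG2, SESN1, SESN2, TP53INP1, ZMAT3, XPC and RRM2B. They were taken by symbol from a table of 13471 genes, in which 9 of the 10 had a row. GDF15, which encodes a secreted stress cytokine, was not analysed here. The study measured RNA with and without immunoprecipitation (IP) of hnRNP U, a nuclear RNA- and DNA-binding protein also called SAF-A, by RNA sequencing of ribosomal RNA-depleted RNA from hTERT-RPE1 cells. These are human cells of the retinal pigment epithelium made immortal with telomerase (hTERT). The 8 libraries formed 4 groups of 2, named interphase without IP, interphase IP, mitosis without IP and mitosis IP. Cells of both interphase groups had been kept for 24 h in 2 mM thymidine, an excess of which stalls DNA replication. Cells of both mitosis groups had received the same thymidine block, 6 h of growth without thymidine and then S-Trityl-L-cysteine (STLC) overnight, an inhibitor of the mitotic kinesin Eg5 that holds cells in mitosis. Both IP groups used the anti-hnRNP U antibody 3G6, and the groups without IP used none. All 4 groups therefore carried the thymidine block, and neither untreated cells nor an IP with a control antibody were analysed here. A gene raised by thymidine and a gene lowered by mitotic arrest cannot be told apart in these groups.

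p53 is a transcription factor that is kept low by the ubiquitin ligase MDM2 and its relative MDM4, and that accumulates after DNA damage, stalled replication or an overlong mitosis. Its targets stop the cell cycle, repair DNA, supply nucleotides, restrain growth signalling or promote cell death, and MDM2 is itself a target, which closes a negative feedback loop. The factor binds DNA as a tetramer at a pair of adjacent half-sites, each of 10 bases.

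Sequences around the annotated starts are shown for the searched genes whose windows lie closest to that consensus. They are context for genes that did not move together below. RefSeq windows (GRCh38.p14) of 250 bases before to 50 bases from each start were searched for 7 of the 9 genes, 13 windows in all. TP53INP1 and RRM2B were left out of that search. The windows were compared with the 20-base p53 consensus of a pair of half-sites with no spacer. The consensus is its own reverse complement, so a search of 1 strand covers both. The best window of MDM2, out of 4, had 2 mismatches, a level reached or bettered by 0.652% of 34796 promoter windows. The best window of SESN1, out of 3, and the only window of XPC had 3 mismatches, as 5.21% of windows did or fewer. BTG2 and ZMAT3 had 4 mismatches at best and CDKN1A and SESN2 had 5, levels that 26.0% and 70.5% of all windows reached or bettered. The shares are per single window, so the best of several windows of a gene reaches a level more often than they state. The first pair of lines gives 90 bases of MDM2 and of SESN1 with each match in capitals. The MDM2 stretch, at chr12:68808907-68808996 on the plus strand, has matches that begin 94 and 56 bases before an annotated start inside the gene. The SESN1 stretch, at chr6:109009009-109009098 on the minus strand, has a match that begins 49 bases before such an internal start. As annotated, MDM2 begins at base 68808176 and SESN1 at base 109094819. The windows at those outermost starts had 5 mismatches at best. The last 3 lines give the best match of each gene alone, with capitals for the bases that fit the consensus and lower case for the mismatches. The XPC match lies from 13 to 32 bases downstream of the start, at chr3:14178570-14178589 on the minus strand.
MDM2 region: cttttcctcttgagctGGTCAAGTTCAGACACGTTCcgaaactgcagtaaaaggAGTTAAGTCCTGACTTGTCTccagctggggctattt
SESN1 region: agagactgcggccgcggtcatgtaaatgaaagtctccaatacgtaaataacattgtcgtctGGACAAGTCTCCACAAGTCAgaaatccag
MDM2 match: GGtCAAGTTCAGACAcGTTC
SESN1 match: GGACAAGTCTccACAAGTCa
XPC match: GAAtTTGCCCAGACAAGCaa
Counting up to 3 mismatches, the MDM2 stretch holds 2 matches, the first with 2 mismatches and the second with 3. The SESN1 stretch holds 1, with 3 mismatches. In the region lines the capitals also cover mismatched bases. A match is a description of letters in these windows, and sites elsewhere in a gene were not searched.

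The values are FPKM (fragment counts scaled by transcript length and by library size). In interphase without IP the order of the levels was CDKN1A, MDM2, ZMAT3, RRM2B, TP53INP1, SESN1, XPC, SESN2 and BTG2, and no neighbours in that order overlapped. CDKN1A, at 61.1 ± 0.0885 FPKM (SD, n = 2), lay above 92.0% of the genes of the table, and BTG2, at 1.89 ± 0.156 FPKM (SD, n = 2), above 24.2%. In mitosis without IP MDM2 came first at 47.3 ± 2.29 FPKM (SD, n = 2) and CDKN1A was at 15.2 ± 0.760 FPKM (SD, n = 2). RRM2B and ZMAT3 followed, the values of XPC and TP53INP1 next in the order overlapped, and SESN1, SESN2 and BTG2 were the lowest. CDKN1A and MDM2 thus stood in opposite order in the 2 phases.

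**Figure D1:**
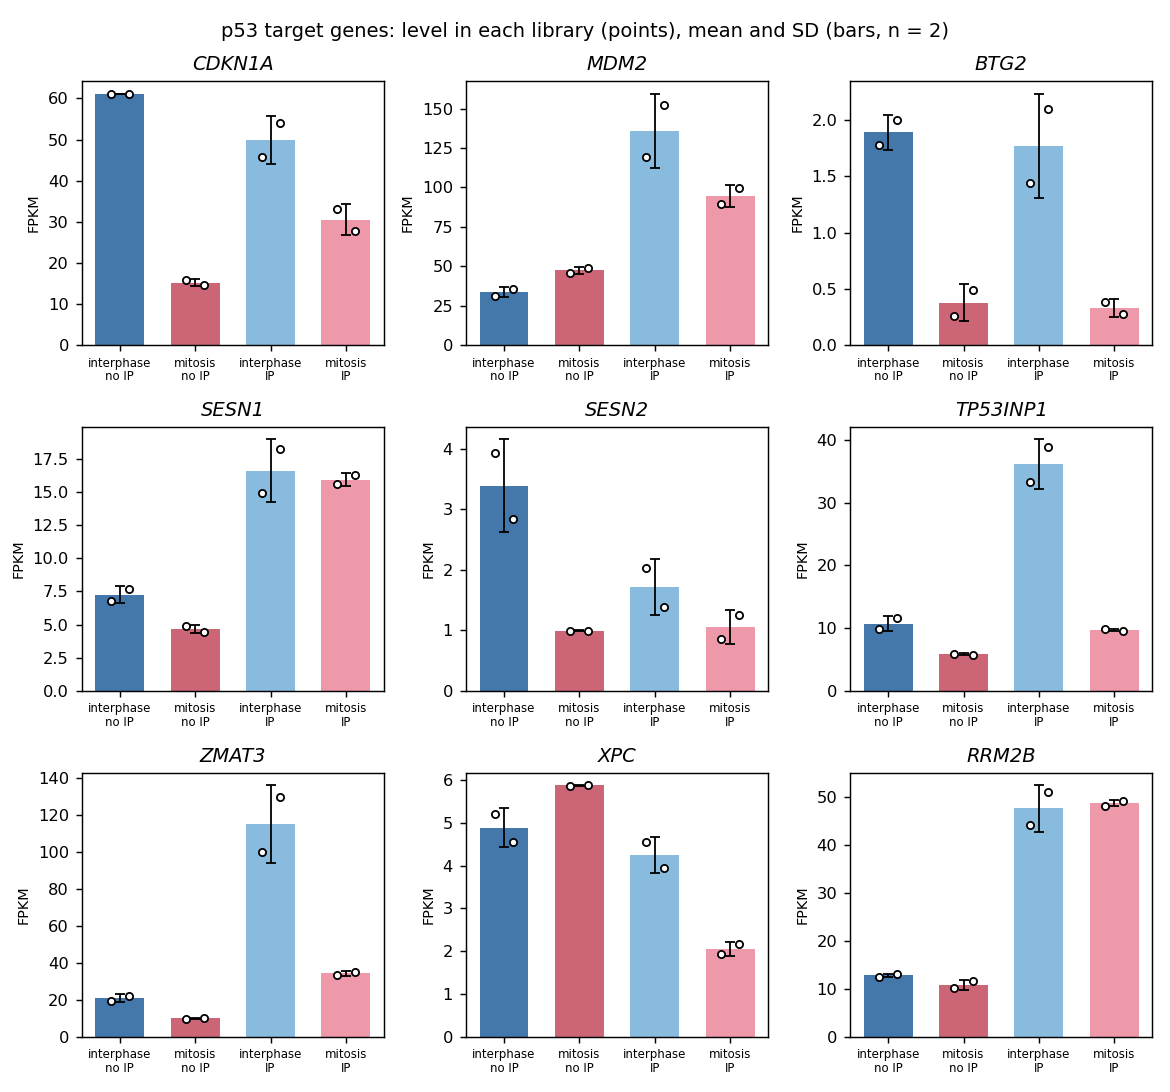
Level of each of the 9 genes in FPKM (vertical axes, each from 0 and each on its own scale) in the 4 groups; points are libraries, bars are means and error bars are SDs (n = 2). CDKN1A and BTG2 are low in mitosis with and without IP, MDM2, ZMAT3, SESN1 and RRM2B are highest in IP libraries, and XPC is lowest in the mitotic IP.

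Whether cells stalled in replication and cells held in mitosis differ in these targets was compared first in the libraries without IP. Of the 9 genes, 6 were lower in mitosis, 1 was higher and 2 did not pass the test (limma on log2(FPKM + 1), Benjamini-Hochberg adjusted p below 0.05 over all genes). The phases differed widely: 51.7% of all genes passed, 26.2% higher and 25.5% lower. The median log2 fold change was -0.77 over the 9 genes and -0.00 over all genes. The values of the 2 phases did not overlap for any of the 9 genes, including the 2 that did not pass. With 2 libraries a group this is a weak criterion, and the share of all genes that meet it was not determined. Nothing in the labels says that the libraries of a group came from separate cultures. The spread behind each p-value was pooled over all 4 groups and moderated over all genes, and it may be technical. In a bulk lysate, fewer cells that hold a transcript and less of it per cell cannot be told apart.

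The genes that arrest the cell cycle were among those that fell most. CDKN1A (chr6:36676460-36687339, plus strand) encodes p21, an inhibitor of cyclin-dependent kinases and the best known mediator of p53 arrest. It was at 61.1 and 61.0 FPKM in the interphase libraries without IP and at 15.7 and 14.6 FPKM in the mitotic ones. Both mitotic libraries lay far below both interphase libraries, a 4.02-fold lower mean with a log2 fold change of -1.94 (SE 0.12, adjusted p = 9.31e-06). The authors' deposited table gives mitosis to interphase ratios of 0.257 and 0.240 for this gene. BTG2 (chr1:203305491-203309602, plus strand), an antiproliferative protein that works with the CCR4-NOT deadenylase, was at 1.78 and 2.00 FPKM in interphase and at 0.262 and 0.492 FPKM in mitosis. Its mean was 5.02-fold lower in mitosis, with a log2 fold change of -1.08 (SE 0.14, adjusted p = 0.000351) that the pseudocount of 1 FPKM shrinks, and it was -2.10 with a pseudocount of 0.1 FPKM.

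MDM2 (chr12:68808176-68850686, plus strand), the ligase that marks p53 for degradation, moved the other way. It was at 31.4 and 35.6 FPKM in interphase and at 45.7 and 49.0 FPKM in mitosis. The mitotic mean was 1.41-fold higher, with a log2 fold change of 0.49 (SE 0.14, adjusted p = 0.0172). That call did not survive without replicate 1 of interphase without IP (log2 fold change 0.40), without replicate 2 of mitosis without IP (0.44), or with trends in transcript length and GC content removed (0.16).

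The regulators of growth signalling, cell death and RNA fell in mitosis. SESN1 (chr6:108986437-109094819, minus strand) and SESN2 (chr1:28259527-28282491, plus strand) encode sestrins, stress proteins that restrain the growth kinase complex mTORC1. SESN1 was at 6.81 and 7.71 FPKM in interphase and 4.90 and 4.45 FPKM in mitosis, a log2 fold change of -0.54 (SE 0.13, adjusted p = 0.00697) that lost its call without replicate 2 of interphase without IP (-0.46). SESN2 was at 3.93 and 2.84 FPKM in interphase and close to 1 FPKM in both mitotic libraries (0.997 and 0.994 FPKM). Its mean was 3.40-fold lower in mitosis, with a log2 fold change of -1.13 (SE 0.17, adjusted p = 0.000757). TP53INP1, a nuclear and autophagy-linked protein that promotes p53-dependent cell death, was at 9.90 and 11.5 FPKM in interphase and 5.92 and 5.75 FPKM in mitosis. Its log2 fold change was -0.77 (SE 0.12, adjusted p = 0.00081). ZMAT3 (chr3:179017223-179072279, minus strand), an RNA-binding zinc finger protein, was at 19.2 and 22.2 FPKM in interphase and 9.69 and 9.89 FPKM in mitosis, 2.11-fold lower. Its log2 fold change was -1.003 (SE 0.13, adjusted p = 0.00045).

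The genes of DNA repair and nucleotide supply did not pass the test. XPC (chr3:14145147-14178783, minus strand) encodes the damage sensor of global nucleotide excision repair. It was at 5.21 and 4.56 FPKM in interphase and 5.87 and 5.88 FPKM in mitosis, with a log2 difference of 0.23 (95% interval -0.05 to 0.50, adjusted p = 0.155). RRM2B, the p53-inducible small subunit of ribonucleotide reductase, was at 12.5 and 13.0 FPKM in interphase and 10.1 and 11.6 FPKM in mitosis. Its log2 difference was -0.22 (95% interval -0.47 to 0.02, adjusted p = 0.117), and it passed the test as lower under quantile normalization (-0.35) and with length and GC trends removed (-0.43).

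**Figure D2:**
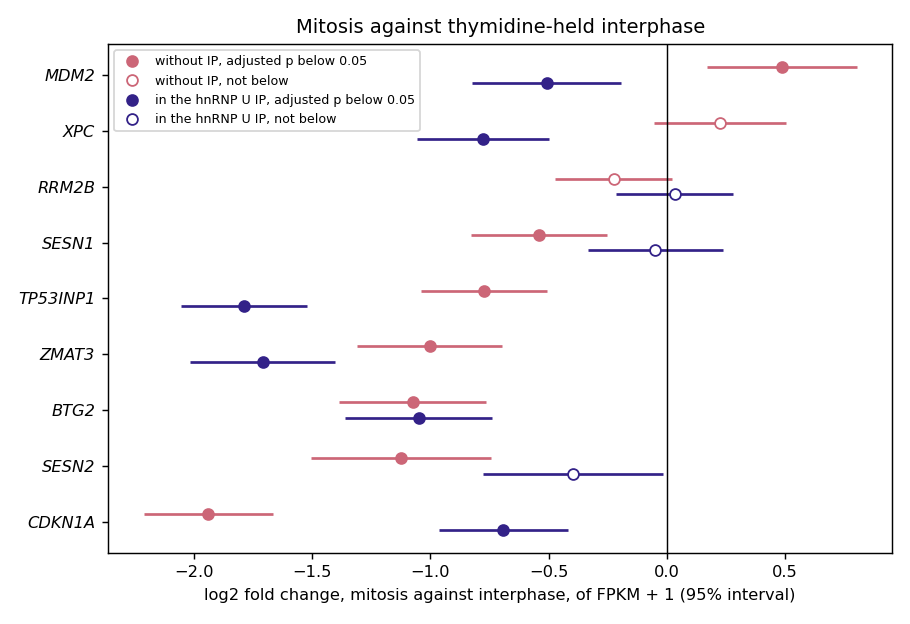
Log2 fold change of FPKM + 1, mitosis against interphase (horizontal axis), for the 9 genes without IP and in the hnRNP U IP; lines are 95% intervals and filled points passed the test. MDM2 lies above 0 without IP and below 0 in the IP, while CDKN1A, BTG2, ZMAT3 and TP53INP1 lie below 0 in both.

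The same phases were then compared in the immunoprecipitated RNA. Of the 9 genes, 6 were lower in the mitotic IP, 0 were higher and 3 did not pass, against 61.4% of all genes called, 35.8% higher and 25.6% lower. Without the adjustment the count of higher genes was also 0. The median log2 fold change was -0.69 over the 9 genes and 0.08 over all genes. TP53INP1 fell from 33.4 and 38.9 FPKM in the interphase IP to 9.87 and 9.56 FPKM in the mitotic IP, a 3.72-fold lower mean with a log2 fold change of -1.79 (SE 0.12, adjusted p = 4.56e-06). ZMAT3 fell from 99.96 and 129.8 FPKM to 33.1 and 35.2 FPKM, a 3.36-fold lower mean (log2 fold change -1.71, SE 0.13, adjusted p = 1.21e-05). For both genes the mitotic IP libraries lay well below the interphase ones. BTG2 was at 1.44 and 2.10 FPKM in the interphase IP and 0.385 and 0.276 FPKM in the mitotic IP, a log2 fold change of -1.05 (adjusted p = 0.000192).

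CDKN1A was at 45.8 and 54.0 FPKM in the interphase IP and 33.2 and 27.8 FPKM in the mitotic IP, lower by a log2 fold change of -0.69 (SE 0.12, adjusted p = 0.00102). MDM2, which was higher in mitosis without IP, was lower in the IP, at 119 and 153 FPKM in interphase and 89.7 and 99.6 FPKM in mitosis. Its log2 fold change there was -0.51 (SE 0.14, adjusted p = 0.0114), and the call did not survive without replicate 2 of the interphase IP (-0.33), without replicate 1 of the mitotic IP (-0.43) or with length and GC trends removed (-0.10). XPC was at 4.54 and 3.94 FPKM in the interphase IP and 1.94 and 2.16 FPKM in the mitotic IP, a log2 fold change of -0.78 (SE 0.12, adjusted p = 0.000579). SESN1 (14.9 and 18.3 against 15.6 and 16.3 FPKM) and RRM2B (44.2 and 51.1 against 48.2 and 49.2 FPKM) overlapped between the phases in the IP, with log2 differences of -0.05 and 0.04 that did not pass. RRM2B passed as higher there with length and GC trends removed (0.35). SESN2, at 2.04 and 1.38 against 0.855 and 1.25 FPKM, had a log2 difference of -0.40 (adjusted p = 0.067), which passed under median centring (-0.51), with length and GC trends removed (-0.63), without replicate 2 of the interphase IP (-0.57) and without replicate 2 of the mitotic IP (-0.54).

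Levels in the hnRNP U IP were then compared with those without IP within each phase. In interphase 5 of the 9 genes were higher in the IP than without it, 1 was lower and 3 did not pass, against 74.6% of all genes called, 37.6% higher and 37.0% lower. The median log2 fold change was 1.09 over the 9 genes and 0.02 over all genes. ZMAT3 rose 5.56-fold, from 19.2 and 22.2 FPKM to 99.96 and 129.8 FPKM (log2 fold change 2.41, SE 0.13, adjusted p = 8.57e-07). MDM2 rose 4.06-fold, from 31.4 and 35.6 FPKM to 119 and 153 FPKM (log2 fold change 1.98, adjusted p = 2.59e-06). RRM2B rose 3.73-fold (1.82, adjusted p = 1.20e-06) and TP53INP1 3.37-fold (1.66, adjusted p = 2.59e-06). SESN1 rose 2.29-fold (1.09, adjusted p = 5.00e-05). No IP library of these 5 genes overlapped a library without IP, but the share of all genes without overlap was not determined. SESN2 was lower in the IP, by a log2 fold change of -0.70 (adjusted p = 0.00451). CDKN1A (-0.29, adjusted p = 0.053), XPC (-0.17, adjusted p = 0.243) and BTG2 (-0.07, adjusted p = 0.655) did not pass, and the CDKN1A value passed as lower when replicate 2 of the interphase IP (-0.41) or either replicate of the mitotic IP (-0.29) was left out.

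In mitosis 6 of the 9 genes were higher in the IP, 1 was lower and 2 did not pass, against 64.5% of all genes called, 32.8% higher and 31.7% lower. The median was 0.96 over the 9 genes and 0.01 over all genes. RRM2B rose 4.51-fold, from 10.1 and 11.6 FPKM to 48.2 and 49.2 FPKM (log2 fold change 2.08, SE 0.11, adjusted p = 6.40e-06). ZMAT3 rose 3.49-fold (1.70, adjusted p = 1.40e-05) and SESN1 3.41-fold (1.58, adjusted p = 1.47e-05). MDM2 rose 2.00-fold (0.98, adjusted p = 0.000271) and TP53INP1 1.66-fold (0.65, adjusted p = 0.00113). CDKN1A, which did not pass in interphase, rose 2.01-fold in mitosis, from 15.7 and 14.6 FPKM to 33.2 and 27.8 FPKM (0.96, adjusted p = 0.000136). XPC fell 2.86-fold, from 5.87 and 5.88 FPKM to 1.94 and 2.16 FPKM (-1.17, SE 0.12, adjusted p = 5.13e-05). BTG2 (-0.05) and SESN2 (0.03) did not pass, and their IP libraries overlapped those without IP.

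The difference between the 2 IP effects was tested directly as an interaction. It passed for 7 of the 9 genes, 3 with the larger value in mitosis and 4 with the smaller, against 47.1% of all genes, 27.2% and 19.9% in these directions. The median was 0.03 over the 9 genes and 0.07 over all genes. CDKN1A had the largest positive difference of the 9, 1.25 (SE 0.17, adjusted p = 0.000537). TP53INP1 (-1.02, SE 0.17, adjusted p = 0.00128), XPC (-1.004, SE 0.17, adjusted p = 0.00173) and MDM2 (-0.997, SE 0.20, adjusted p = 0.0034) had negative differences of like size. ZMAT3 was at -0.71 (adjusted p = 0.0149), SESN2 at 0.73 (adjusted p = 0.0328) and SESN1 at 0.49 (adjusted p = 0.049). BTG2 (0.03, adjusted p = 0.926) and RRM2B (0.26, 95% interval -0.09 to 0.61, adjusted p = 0.201) did not pass. Leaving out replicate 1 of interphase without IP left 4 of the 7 calls, ending those of SESN1 (0.57), SESN2 (0.55) and ZMAT3 (-0.61). The SESN1 call was also lost without any other library except replicate 2 of the interphase IP, 7 of 8 libraries in all (0.35 to 0.57). That of SESN2 was lost without replicate 2 of either IP group or either replicate of mitosis without IP as well (0.55 to 0.73). Quantile normalization ended both calls (0.43 and 0.55), median centring that of SESN1 (0.46) and a pseudocount of 0.1 that of SESN2 (1.004). The comparisons share libraries, so their values are given side by side and not as separate support for each other.

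**Figure D3:**
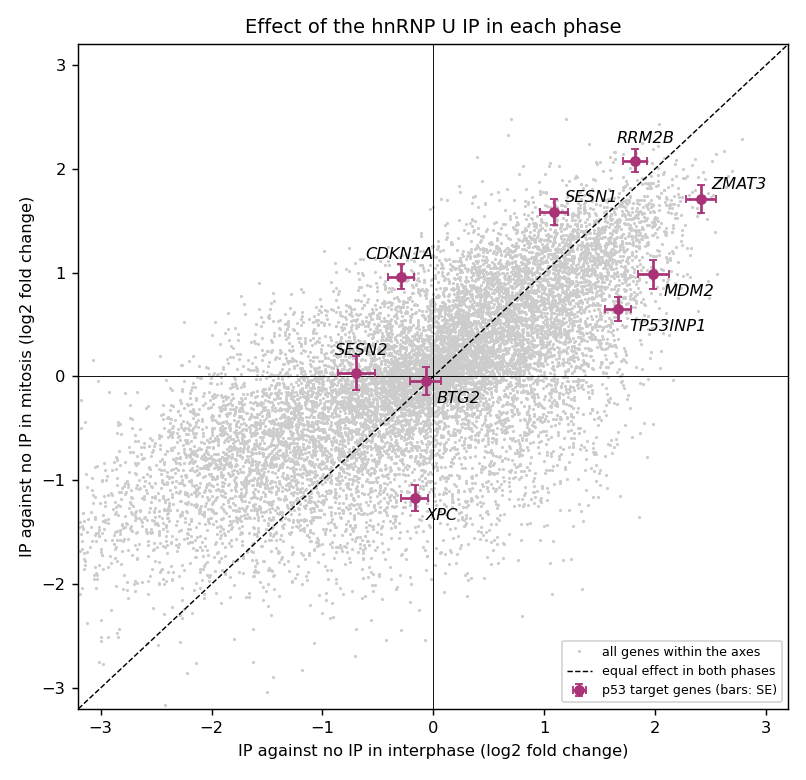
Log2 fold change of IP against no IP in interphase (horizontal axis) and in mitosis (vertical axis) for the 9 genes, with SE bars, over all genes that fall within the axes (grey points); the dashed line marks equal effects. CDKN1A and SESN2 lie above the line, MDM2, TP53INP1, ZMAT3 and XPC below it, and RRM2B is high in both phases.

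The genes that rose in the IP in both phases differed from the other members in the base composition of their transcripts and largely in length. These 5 genes had the lowest GC content of the 9 in their longest annotated transcripts, from 36.4% in RRM2B and 39.5% in ZMAT3 to 43.4% in SESN1. RRM2B (4931 bases), TP53INP1 (5638), ZMAT3 (9406) and MDM2 (12633) were longer than all of the other 4 genes, which ran from 2267 to 3832 bases. Only SESN1, at 3509 bases, fell within that range. CDKN1A and SESN2, at 58.1% and 59.5%, had the highest GC content. With trends of length and GC content over all genes removed from each library, the interphase values of ZMAT3, MDM2, RRM2B, TP53INP1 and SESN1 were 0.99, 0.67, 0.62, 0.51 and 0.54, and all 5 still passed. Under the same removal CDKN1A turned from -0.29 to 0.85 in interphase and passed as higher, and SESN2 turned from -0.70 to 0.15 and did not pass. In mitosis CDKN1A was at 1.49, RRM2B at 1.41, SESN1 at 1.25 and ZMAT3 at 1.03, MDM2 at 0.41 and XPC at -0.99, all still called. TP53INP1, at 0.06, lost its call and SESN2, at 0.55, gained one. For the interaction CDKN1A was at 0.65, SESN1 at 0.71, TP53INP1 at -0.45 and XPC at -1.06 and kept their calls, while MDM2 (-0.26), SESN2 (0.40) and ZMAT3 (0.04) lost theirs and RRM2B (0.78) gained one. Both trends were removed together, and the part of length or base composition in the deposited effects was not tested further.

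**Figure D4:**
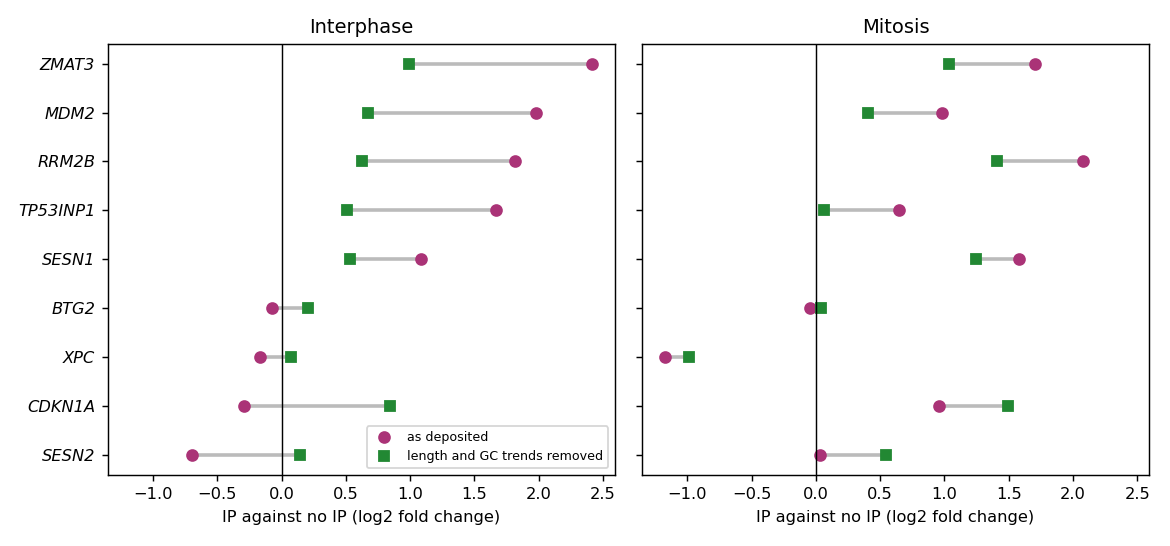
Log2 fold change of IP against no IP (horizontal axes) in interphase and in mitosis for the 9 genes, from the deposited FPKM (circles) and after removal of length and GC trends over all genes (squares). In interphase the values of ZMAT3, MDM2, RRM2B, TP53INP1 and SESN1 shrink but stay above 0, and CDKN1A and SESN2 cross 0.

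MDM4, the MDM2 relative that masks the activation domain of p53, was measured as well. It was at 5.95 and 5.85 FPKM in interphase and 8.94 and 8.72 FPKM in mitosis without IP, a log2 fold change of 0.51 (adjusted p = 0.00232), and lower in the mitotic than in the interphase IP (-0.49, adjusted p = 0.00199). Neither call of MDM4 survived the removal of length and GC trends (0.20 and -0.11).

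Among 26 regulators of p53, 18 were higher in mitosis without IP, 2 were lower and 6 did not pass, against 26.2% of all genes higher and 25.5% lower. Their median log2 fold change was 0.51, beside -0.00 over all genes. LATS2, a Hippo pathway kinase that binds MDM2, rose by 1.05 on the log2 scale (adjusted p = 0.00181). The checkpoint genes CLSPN (0.99), ATR (0.95) and CHEK1 (0.91), which sense and signal stalled replication, rose as well. CDK5 (-0.92), a neuronal cyclin-dependent kinase, was among the 2 that were lower.

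Another 57 p53 targets, of 59 listed, split in both directions without IP: 11 were higher in mitosis, 23 were lower and 23 did not pass, with a median of -0.22. That is 19.3% higher and 40.4% lower, against 26.2% and 25.5% of all genes. The genes that fell most were IER5 (-1.83), an immediate early gene, BBC3 (-1.53), which encodes the BH3-only death protein PUMA, NINJ1 (-1.50), which mediates plasma membrane rupture, and TNFRSF10D (-1.23), a decoy receptor for the death ligand TRAIL. BBC3 was at 2.93 and 2.66 FPKM in interphase and 0.433 and 0.205 FPKM in mitosis, and its groups did not overlap. The genes that rose most were IGFBP3 (1.40), a secreted binding protein of insulin-like growth factors, the death receptor gene FAS (1.07), the ion cotransporter gene SLC12A4 (1.05) and the phosphatase gene PTP4A1 (1.04). FAS was at 13.0 and 12.7 FPKM in interphase and 28.6 and 27.5 FPKM in mitosis. The apoptosis genes in the list therefore included members on both sides, BBC3 lower and FAS higher.

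**Figure D5:**
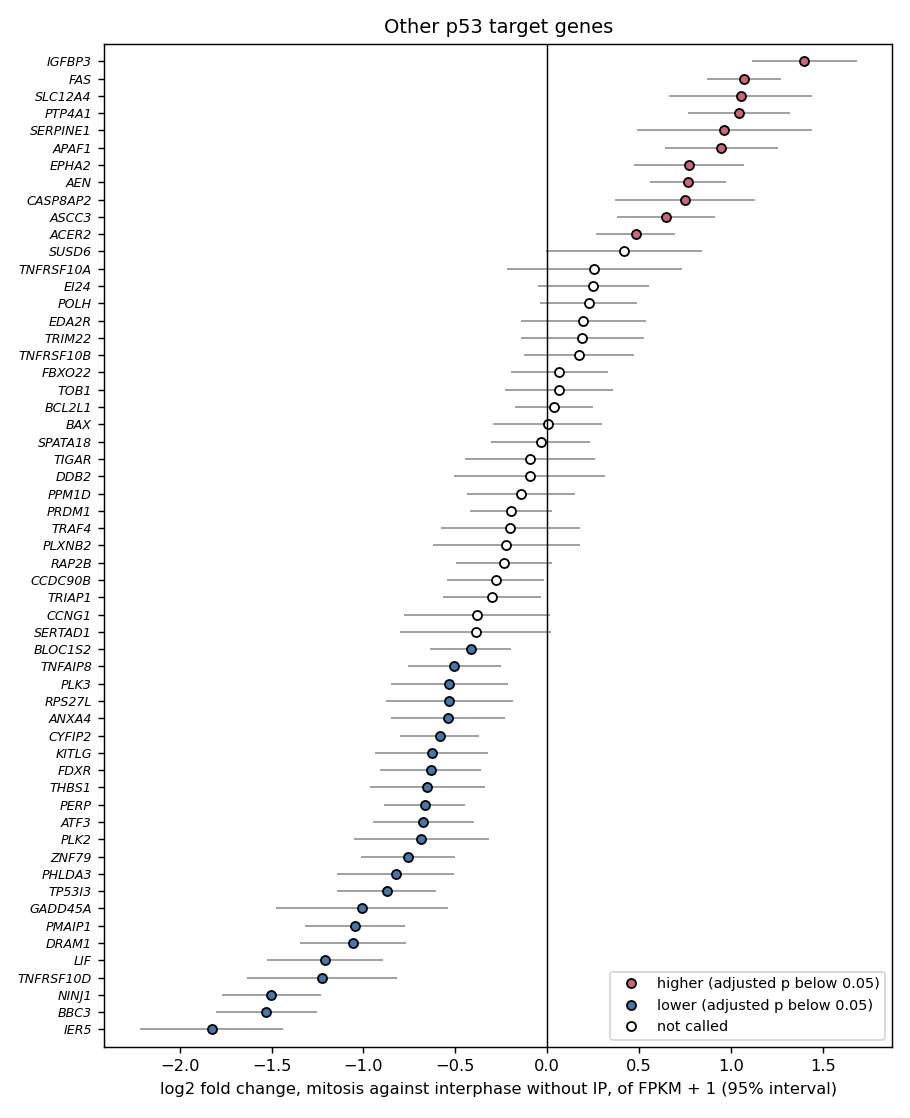
Log2 fold change of FPKM + 1, mitosis against interphase without IP (horizontal axis), for the other 57 p53 targets in order; lines are 95% intervals and colours mark the 11 genes called higher and the 23 called lower. IGFBP3 is at the top at 1.40 and IER5 at the bottom at -1.83.

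The patterns most like that of CDKN1A over the 8 libraries, by Pearson's r of log2(FPKM + 1) among 11271 genes with a mean of at least 1 FPKM, were those of IPO5P1 (0.986), ALAD (0.976), DUSP11 (0.976), GLT8D2 (0.968) and TSPAN6 (0.967). For MDM2 they were DENR (0.998), KIF2A (0.996), UBXN2A (0.995), ERCC6L2 (0.995) and AIDA (0.995). None of these 10 genes is in either list of p53 targets, but the lists hold only 9 and 57 genes. A count of 0 would be usual for any 10 genes and says nothing about p53. Between CDKN1A and MDM2 r was 0.0860, between CDKN1A and BTG2 0.861, and between SESN1 and RRM2B 0.974. These are descriptions over 8 libraries that share their 4 groups.

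Marker RNA was compared between the labelled phases in the libraries without IP, and the share of cells in each phase was not determined. All 12 mitosis markers were higher in mitosis there (BUB1 by 2.66 on the log2 scale). Of 11 G1/S markers 8 were lower and 0 higher, with CCNE2 falling by 2.18. In the IP 10 mitosis markers were higher in mitosis, 0 were lower and 2 did not pass. The G1/S markers went both ways in the IP, 4 higher (GINS2 by 1.51) and 6 lower (CCNE2 at -2.65). Of 12 retinal pigment epithelium markers 6 had a row, LRAT and PMEL were at or below 0.470 FPKM in every library, and the summed level ran from 132.6 to 140.9 and 107.7 to 111.8 FPKM without IP in interphase and mitosis, and from 94.1 to 107.2 and 67.2 to 73.4 FPKM in the IP. The defining markers RPE65, BEST1 and RLBP1 were not among the rows analysed here. The top 10 genes of each library took 58.4% to 63.0% of its summed FPKM without IP and 12.4% to 20.6% in the IP, and their part in the FPKM of the other genes was not tested. Relative depths read from the steps of the low values ranged from 0.639 to 1.19 of the first interphase library.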

How the data were processed

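RNA-seq of 8 libraries was analysed. The deposited values are FPKM, with 1 column for each library, and the ratio columns are quotients that the authors made of FPKM columns with the same replicate number, per the file headers; 80826 ratios were recomputed and matched within a relative 1e-06. TopHat and StringTie are named without version or role, per the submitters' processing notes. Libraries were directional, per the labels' protocols. The gene table is on hg38, the same assembly as GRCh38. Total fragments per library are unknown, so no counting interval is given.

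The test was limma 3.58.1 in R 4.3.3 (lmFit, eBayes with trend) on log2(FPKM + 1), 1 coefficient for each group, all 8 libraries, 4 residual degrees of freedom, no filter, and Benjamini-Hochberg adjustment over 13471 genes with a call at adjusted p below 0.05. The script was tested on simulated data. Fold changes on this scale understate changes of low genes; folds in the text are ratios of mean FPKM. Coordinates, lengths and GC content come from GENCODE release 29, matched for 97.4% of genes. The genes and lists were chosen with earlier results of these data known. All members are described; of the other lists the rule gives MDM4 and up to 4 called genes with the largest change in each direction in a comparison, and not all genes it gives are reported here. For CDKN1A and MDM2 the 5 genes with the highest r are named. The lists were other p53 targets, p53 regulators, mitosis markers, G1/S markers, and markers of retinal pigment epithelium, immune cells, endothelium and neurons. Of the last 3, only the neuronal SNAP25 had a row, at 0.446 to 2.29 FPKM. Alternatives were pseudocounts of 0.1 and 0.5, a mean of at least 1 FPKM, quantile normalization, median centring, removal of spline trends with length and GC content, a replicate block, only the compared groups, no variance trend, and leaving out each library. The table of lncRNAs was not used.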

Additional observations from a re-analysis of the deposited data

Results flagged for a closer look

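The effect of the hnRNP U IP differed between mitosis and interphase, by the interaction test, for 7 of the 9 p53 target genes. On the log2 scale, mitosis minus interphase, the differences were 1.25 for CDKN1A, 0.73 for SESN2, 0.49 for SESN1, -0.71 for ZMAT3, -0.997 for MDM2, -1.004 for XPC and -1.02 for TP53INP1. Of all genes, 47.1% passed the same test. With any 1 library left out, 4 to 6 of the 9 genes passed. With length and GC trends removed, MDM2 (-0.26), SESN2 (0.40) and ZMAT3 (0.04) no longer did.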

How the results depend on the processing

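The 9 genes gave 45 values over the 5 comparisons. A filter at a mean of 1 FPKM, a pseudocount of 0.5, a fit without variance trend, a fit of only the compared groups (4 comparisons) and a replicate block changed no call of them. Same-numbered libraries deviated together with r of 0.0883 to 0.528, which with 2 pairs does not establish a pairing, and with the block the counts called stayed at 7, 6, 6, 7 and 7. Median centring shifted the median of all genes by -0.11 for the phases in the IP and by 0.12 for the interphase IP effect. For the phases without IP it shifted that median by -0.08. There it called 3010 of all genes higher and 4134 lower in mitosis, against 3530 and 3433 in the fit reported.

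Removal of length and GC trends changed the most calls; beyond what the trends contain, the cause was not tested. It turned CDKN1A (0.85) and SESN2 (0.15) in the interphase IP effect and ZMAT3 (0.0384) in the interaction, and among markers CENPE (-0.0729), CDC20 (0.12) and CDC6 (-0.15) in the interphase IP effect, CCNE2 (-0.0248) in the mitotic one, and UBE2C (-0.0604) and AURKB (-0.21) in the interaction. Members called became 0 higher between phases without IP and 1 higher in the IP, 0 lower in the interphase IP effect and 2 lower in the interaction. Other targets called higher in the interphase IP effect became 12 and lower in the interaction 7, and 10 regulators were called in the interphase IP effect. Under quantile normalization 1 member was higher in the interaction, and of all genes 3209 were higher and 3354 lower there, against 3662 and 2677 in the fit reported.

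Leaving out each library in turn, with the lone library assumed to vary like the other groups, gave 0 to 1 member higher between phases without IP, 1 to 2 lower in the interphase IP effect, and in the interaction 4 to 6 called and 1 to 2 higher. Other targets lower in the interaction ranged from 9 to 13 and regulators called from 8 to 12. BTG2 and SESN2 were near or below 1 FPKM in mitosis, where the pseudocount bears most on a log2 value, and the number of fragments behind each value is unknown.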

Other observations

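The other p53 targets moved in both directions in the hnRNP U IP, in shares close to those of all genes. In interphase 24 of 57 were higher in the IP than without it and 22 were lower (median log2 value 0.10), 42.1% and 38.6% against 37.6% and 37.0% of all genes. With length and GC trends removed the 24 became 12. In mitosis 18 were higher and 16 lower (median -0.01), 31.6% and 28.1% against 32.8% and 31.7% of all genes. KITLG, the ligand of the receptor KIT, went from a mean of 10.8 FPKM without IP to 46.7 and 53.5 FPKM in the interphase IP, and from 6.03 and 7.22 to 28.7 and 35.6 FPKM in mitosis, rises of 2.12 on the log2 scale in both phases. BAX, a pore-forming death protein, went from 90.5 and 92.7 FPKM to 15.0 and 18.6 FPKM in the interphase IP (-2.39) and from 91.1 and 92.5 to 26.7 and 21.9 FPKM in mitosis (-1.88). Its levels without IP overlapped between the phases.

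Among the p53 regulators, 15 of 26 were higher in the interphase IP and 7 lower, against 37.6% and 37.0% of all genes. In the mitotic IP 14 were higher and 9 lower, against 32.8% and 31.7%. The 22 regulators called in interphase became 10 with length and GC trends removed. The damage kinase genes PRKDC (2.39) and ATM (1.90) had the largest rises in interphase, and ATM (1.49) the largest in mitosis. Between the phases in the IP, 17 of the other targets were higher in mitosis and 26 lower, 29.8% and 45.6% against 35.8% and 25.6% of all genes, led by AEN, an exonuclease of apoptosis (1.82), and PMAIP1, which encodes the death protein NOXA (-1.61).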
